A study of Mus musculus with 14 samples.

Results

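A set of 10 genes that mark hepatic stellate cells and the myofibroblasts they give rise to were followed in RNA from sorted liver sinusoidal endothelial cells (LSECs): Acta2, Tagln, Pdgfrb, Des, Lrat, Reln, Rgs5, Cygb, Hand2 and Gfap. They are the 10 rows of the count table whose Ensembl identifiers carry these symbols in GENCODE vM21, of 54524 genes in all, and all 10 were among the 26626 genes that passed the filter on low counts.

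The study followed mouse LSECs through acute liver injury. Male Balb/c mice, aged 10 to 12 weeks by the sample labels, received 1 intraperitoneal injection of carbon tetrachloride (CCl4, a solvent that injures hepatocytes) in mineral oil at 0.5 µL per g of body weight. LSECs were taken after 1 day (2 mice), 3 days (4 mice) or 7 days (4 mice), and healthy LSECs came from 4 mice that were not injected with either CCl4 or oil, so the injection itself and CCl4 cannot be told apart. At day 1, a pair of further samples had been dropped by the study for low RNA integrity. The sort took live cells that stained for CD32 and lacked F4/80 and UV autofluorescence, and the methods add that they lacked CD45. The UV gate was set to leave out stellate cells, whose stored retinoid glows under UV light. Sequencing was done on each mouse alone, and the total of counts on genes ran from 46401496 to 103912264 per sample.

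Stellate cells lie between the sinusoidal endothelium and the hepatocytes. In the healthy liver they are quiescent and store vitamin A as retinyl esters, which Lrat (lecithin retinol acyltransferase) makes, and they express the secreted glycoprotein Reln (reelin), the transcription factor Hand2 and the globin Cygb (cytoglobin). After injury they can turn into contractile myofibroblasts that contain smooth muscle actin, encoded by Acta2, and the actin-binding protein transgelin, encoded by Tagln. Pdgfrb is the receptor for the growth factor PDGF-BB, Des encodes the intermediate filament desmin, Rgs5 is a regulator of G protein signalling that marks pericytes, and Gfap encodes a further intermediate filament.

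To check the endothelial label, 12 LSEC markers were summed, at 17348 to 20832 CPM in healthy LSECs (CPM being counts scaled to library size by the TMM method). At days 1, 3 and 7 the sum lay within 13083 to 16138, 10990 to 15915 and 10431 to 14750 CPM. Markers of other cells were not absent: hepatocyte markers summed to 14082 CPM in healthy replicate 4 and 10529 CPM in day 7 replicate 2 (10431 CPM of LSEC markers), and leukocyte markers to 12688 CPM in day 3 replicate 1 (10990 CPM of LSEC markers). Their part in the members' levels was not tested. In healthy LSECs the 4 quiescence genes summed to 10.8 to 23.5 CPM and 20 further stellate cell markers to 873 to 1158 CPM. Ecm1, which is among these 20, is also on the study's own list of genes enriched in LSECs of healthy human liver. The sum of the 20 therefore need not come from stellate cells. Of these 20, 19 had 3 or more counts in healthy replicates 1 and 2, where Ngfr was at 0. All 20 had 3 or more in healthy replicates 3 and 4. In bulk RNA, fewer cells of a type and less RNA per cell cannot be told apart, so a level of these genes is a level in the sorted population and not in any 1 kind of cell within it.

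The promoters of the contractile gene Acta2 and of the quiescence genes Lrat and Reln are shown because the 2 groups of genes are compared throughout. They are RefSeq sequences of 300 bases on GRCm38.p6, from 250 bases before to 50 bases after the transcription start, on the strand of the gene. Capitals mark matches to a search on both strands for TATAAA, for CATTCC (the binding motif of TEAD factors) and for the CArG box. The CArG box is the 10-base motif of serum response factor. It was searched in its strict form and with exactly 1 inner base replaced by G or C. This looser form, which does not count strict boxes, was added after the strict form had given no match in any member.
Acta2, chr19:34255324-34255623, minus strand: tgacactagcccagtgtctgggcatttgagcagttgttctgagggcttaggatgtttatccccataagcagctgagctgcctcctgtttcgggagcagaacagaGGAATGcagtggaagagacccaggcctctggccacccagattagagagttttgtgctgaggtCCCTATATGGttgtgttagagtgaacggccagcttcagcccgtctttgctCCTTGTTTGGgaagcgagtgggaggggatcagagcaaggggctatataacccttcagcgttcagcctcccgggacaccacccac
Lrat, chr3:82903925-82904224, minus strand: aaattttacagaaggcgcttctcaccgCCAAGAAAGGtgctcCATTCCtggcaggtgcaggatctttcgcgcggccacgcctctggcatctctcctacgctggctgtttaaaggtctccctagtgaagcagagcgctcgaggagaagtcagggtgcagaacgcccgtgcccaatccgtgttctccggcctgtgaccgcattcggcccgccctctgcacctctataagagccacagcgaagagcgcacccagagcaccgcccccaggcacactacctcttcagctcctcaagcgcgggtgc
Reln, chr5:22344656-22344955, minus strand: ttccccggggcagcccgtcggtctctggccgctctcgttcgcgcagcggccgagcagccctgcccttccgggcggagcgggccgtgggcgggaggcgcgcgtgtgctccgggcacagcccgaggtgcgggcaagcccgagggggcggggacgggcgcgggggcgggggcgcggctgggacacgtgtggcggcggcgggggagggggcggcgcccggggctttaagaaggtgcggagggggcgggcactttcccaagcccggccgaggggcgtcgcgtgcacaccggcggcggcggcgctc

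The Acta2 promoter held 2 looser CArG boxes, which began 84 and 34 bases before the start, and CATTCC on the other strand, 146 bases before it. The Lrat promoter held 1 looser CArG box at 223 bases and CATTCC at 208 bases before the start, and the Reln promoter held none of the motifs searched. Among 32851 RefSeq promoters of the same length, 8.50% held the looser CArG box, 1.63% the strict one, 14.7% CATTCC and 13.6% TATAAA. G and C made up 54.7% of the Acta2 promoter with 6 CpG, 60.7% of that of Lrat with 21 CpG and 80.7% of that of Reln with 47 CpG, against medians of 52.7% and 7 CpG over all promoters. Promoters of Des, Rgs5, Hand2 and Gfap, the other 4 of 7 members with an entry, held none of the motifs. A match describes the letters in the window and is not a bound site, and a window without a match says nothing on the factor.

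In healthy LSECs every member was detected in every mouse, with 6 or more counts for Gfap and 43 or more for each of the others. Per kilobase of exon, the scale on which genes can be compared, Acta2 stood first at 3.13 ± 0.875 CPM per kb (mean ± SD, n = 4), and its range did not meet that of Rgs5 at 1.72 ± 0.419, while Rgs5 overlapped Cygb at 1.56 ± 0.355. Tagln (0.935 ± 0.193), Lrat (0.799 ± 0.642) and Des (0.654 ± 0.194) followed with ranges that overlapped from neighbour to neighbour. Pdgfrb (0.360 ± 0.0696), Reln (0.304 ± 0.0684) and Hand2 (0.298 ± 0.0954) overlapped as well, and Gfap was last at 0.0290 ± 0.0122. Acta2 kept the first place at days 1 and 3, at 6.66 ± 2.22 (n = 2) and 32.8 ± 10.1 (n = 4) CPM per kb. At day 7 Cygb stood first by its mean of 20.2 ± 19.3 CPM per kb, with ranges that overlapped between all neighbours except Hand2 and Gfap.

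**Figure D1:**
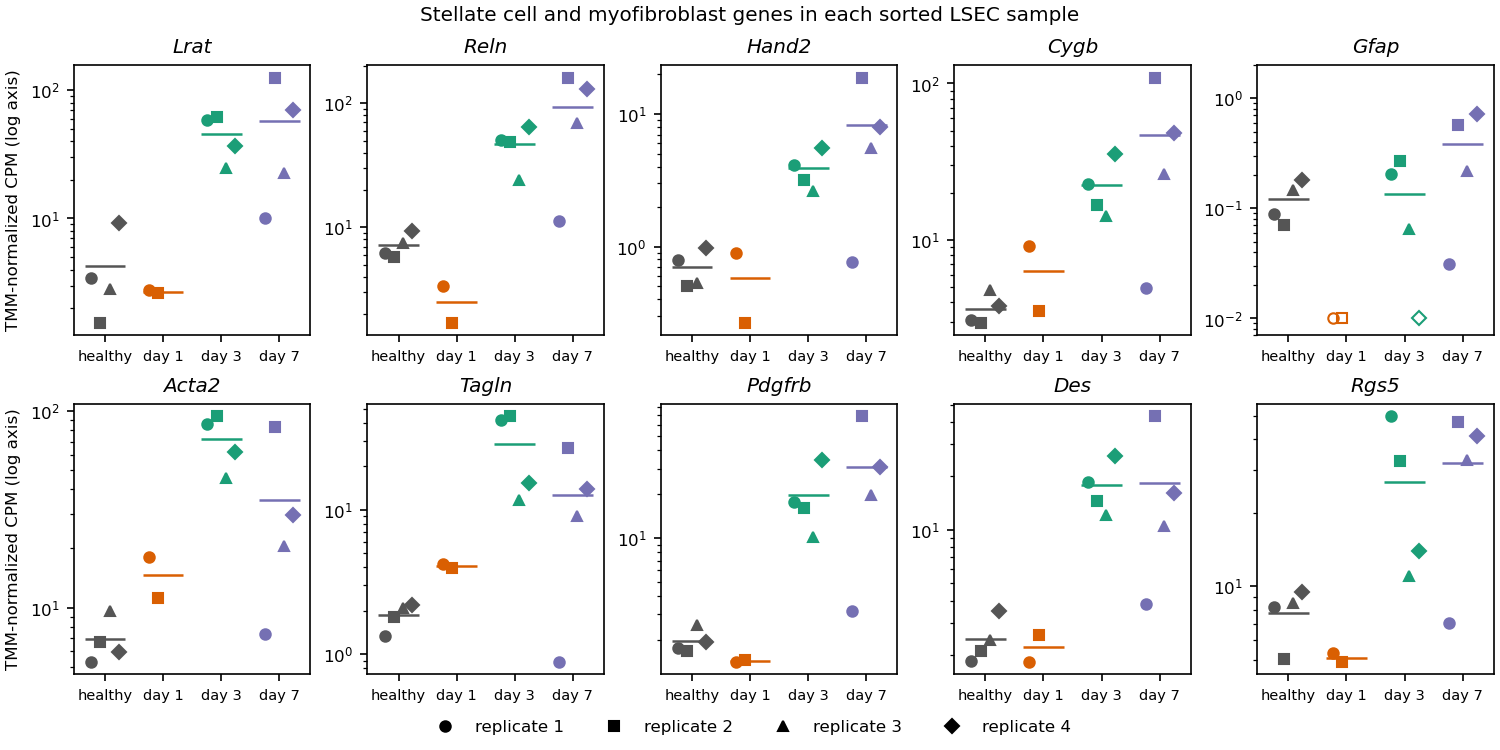
TMM-normalized CPM (log axis) of the 10 members in each of the 14 samples, with 1 panel per gene. Symbols give the replicate number, and the labels do not say that it links mice of different groups. Horizontal lines are group means and open symbols mark samples with no count. At day 3 the members other than Gfap lie above the healthy mice, and at day 7 the 4 mice lie far apart, with replicate 1 lowest in each panel.

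On the quiescence side, Lrat, on the minus strand of chromosome 3 from 82892579 to 82903973, was at 3.46, 1.53, 2.83 and 9.28 CPM in the 4 healthy mice, at 2.75 and 2.64 at day 1, at 58.8, 61.9, 24.7 and 36.8 at day 3 and at 10.1, 125, 22.8 and 69.7 at day 7. Both day 1 mice lay inside the healthy range, whereas all mice of days 3 and 7 lay above it. Against healthy LSECs the log2 fold change was -0.66 at day 1 (standard error 0.85, adjusted p = 0.778), 3.41 at day 3 (0.73, adjusted p = 0.0147) and 3.74 at day 7 (0.74, adjusted p = 0.0188) in edgeR's quasi-likelihood test. The highest healthy value was that of replicate 4, a mouse whose 12 hepatocyte markers summed to 14082 CPM against 413 to 695 CPM in the other healthy mice. Without this mouse the log2 fold change of Lrat was 4.00 at day 3 and 4.48 at day 7, and the part of hepatocyte RNA in the difference was not tested.

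Reln (chromosome 5, 21884454 to 22344702, minus strand) was at 6.20, 5.82, 7.45 and 9.42 CPM in healthy mice and at 3.37 and 1.70 at day 1. It reached 50.7, 48.2, 24.0 and 63.9 CPM at day 3 and 11.3, 161, 69.2 and 129 at day 7. Both day 1 mice lay below all healthy mice and every later mouse lay above them. The log2 fold change was -1.51 at day 1 (standard error 0.74, 95% interval -3.10 to 0.08, adjusted p = 0.312), which did not pass the test, 2.69 at day 3 (0.59, adjusted p = 0.0166) and 3.68 at day 7 (0.62, adjusted p = 0.00961). Reln is also on the study's own list of genes enriched in LSECs of healthy human liver.

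Hand2 (chromosome 8, 57320983 to 57324633, plus strand) was low in healthy mice, at 0.798, 0.505, 0.530 and 0.973 CPM, and at 0.897 and 0.264 at day 1. Its values were 4.14, 3.20, 2.61 and 5.58 CPM at day 3 and 0.769, 18.8, 5.58 and 7.93 at day 7. All day 3 mice lay above the healthy range, but day 7 replicate 1 lay within it. The log2 fold change was 2.47 at day 3 (standard error 0.70, adjusted p = 0.0511), just short of the threshold, and 3.56 at day 7 (0.74, adjusted p = 0.0225), which passed. Hand2 shares 461 exon bases with the antisense gene Hand2os1, which was at 2.59 CPM in healthy LSECs on average, 0.673 at day 1, 12.7 at day 3 and 17.2 at day 7, and without strand in the counting the reads of the shared bases cannot be told apart.

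Cygb (chromosome 11, 116645595 to 116654313, minus strand) was at 3.09, 2.94, 4.75 and 3.80 CPM in healthy mice, 9.15 and 3.52 at day 1, 22.8, 16.7, 14.3 and 35.6 at day 3, and 4.91, 109, 26.5 and 47.9 at day 7. One of the day 1 mice lay above the healthy range and the other inside it, while all mice of days 3 and 7 lay above it, replicate 1 of day 7 by a small margin. Its log2 fold change was 0.80 at day 1 (standard error 0.76, adjusted p = 0.678), 2.61 at day 3 (0.68, adjusted p = 0.0338) and 3.69 at day 7 (0.71, adjusted p = 0.0164).

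Of the contractile pair, Acta2 (chromosome 19, 34241090 to 34255590, minus strand) was at 5.28, 6.65, 9.64 and 5.96 CPM in healthy mice and at 18.1 and 11.2 at day 1. At day 3 it stood at 86.0, 94.2, 45.7 and 62.2 CPM and at day 7 at 7.32, 82.9, 20.7 and 29.7. Mice of days 1 and 3 all lay above the healthy range, and at day 7 replicate 1 lay within it. The log2 fold change was 1.09 at day 1 (standard error 0.63, 95% interval -0.27 to 2.44, adjusted p = 0.414), 3.39 at day 3 (0.58, adjusted p = 0.00528) and 2.35 at day 7 (0.56, adjusted p = 0.0394). Acta2 is nearly identical to other actin genes, so reads that the counting could place on either are uncertain.

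Tagln (chromosome 9, 45929619 to 45936058, minus strand) was at 1.34, 1.81, 2.09 and 2.20 CPM in healthy mice and at 4.23 and 3.97 at day 1. Its 4 values were 42.0, 44.3, 11.7 and 15.4 CPM at day 3 and 0.883, 26.6, 9.06 and 13.9 at day 7. It lay above the healthy range at days 1 and 3 and in 3 of 4 mice at day 7, where replicate 1 fell below all healthy mice. The log2 fold change was 1.14 at day 1 (standard error 0.81, adjusted p = 0.527), 3.93 at day 3 (0.76, adjusted p = 0.00909) and 2.76 at day 7 (0.73, adjusted p = 0.0558). On the opposite strand, Pcsk7 and Gm48529 share 1349 of the 1988 exon bases of Tagln. Pcsk7 went from 35.9 CPM in healthy LSECs to 27.6, 18.1 and 21.2 at days 1, 3 and 7, and Gm48529 from 3.25 to 4.86, 17.5 and 6.56, so the Tagln count is uncertain where these overlap. Shorter overlaps of this kind exist for Reln (246 exon bases), Des (220) and Cygb (201).

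Among the remaining members, Pdgfrb (chromosome 18, 61045150 to 61085061, plus strand) was at 1.76, 1.69, 2.53 and 1.92 CPM in healthy mice, 1.41 and 1.45 at day 1, 17.8, 16.2, 10.2 and 34.6 at day 3 and 3.14, 68.5, 19.8 and 30.9 at day 7. Day 1 lay below all healthy mice by less than 1 CPM, and days 3 and 7 lay above them. The receptor rose by 3.32 on the log2 scale at day 3 (standard error 0.67, adjusted p = 0.0116) and by 3.95 at day 7 (0.69, adjusted p = 0.0109), and its day 1 difference of -0.46 (adjusted p = 0.849) did not pass the test.

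Des (chromosome 1, 75360329 to 75368579, plus strand) was at 1.84, 2.09, 2.40 and 3.49 CPM in healthy mice and at 1.82 and 2.58 at day 1, and then at 18.4, 14.5, 12.2 and 25.7 at day 3 and 3.84, 43.0, 10.5 and 16 at day 7. Again all mice of the later days lay above the healthy range. The filament gene rose by 2.85 at day 3 (standard error 0.57, adjusted p = 0.0109) and by 2.90 at day 7 (0.57, adjusted p = 0.0186).

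Rgs5 (chromosome 1, 169655501 to 169695813, plus strand) was at 8.21, 5.05, 8.50 and 9.43 CPM in healthy mice and at 5.30 and 4.89 at day 1. At day 3 it stood at 49.7, 32.7, 11.01 and 13.99 CPM, all above the healthy range, and at day 7 at 7.05, 47.2, 32.8 and 41.2, with replicate 1 within that range. The log2 fold changes of 1.78 at day 3 (standard error 0.54, adjusted p = 0.0653) and 2.04 at day 7 (0.55, adjusted p = 0.0600) did not pass the test.

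Gfap (chromosome 11, 102887336 to 102900912, minus strand) stayed near the limit of detection, with 0 to 63 counts. It was at 0.0898, 0.0705, 0.146 and 0.183 CPM in healthy mice, at 0.206, 0.272, 0.0655 and 0 at day 3 and at 0.0312, 0.573, 0.220 and 0.715 at day 7. No read was counted in either day 1 mouse, and against 3 counts per library its mean was at least 3.55-fold lower than in healthy LSECs, a bound that covers counting error only. None of its differences passed the test (adjusted p = 0.136, 0.960 and 0.412 at days 1, 3 and 7), and at counts this low a difference may not have been detectable.

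At day 1 none of the 10 members was called changed in edgeR's quasi-likelihood test (adjusted p under 0.05), while 4.06% of all tested genes were (2.42% higher and 1.64% lower). Gfap had an unadjusted p of 0.0128 in that edgeR test, the other 9 members were above 0.05, and 4759 of all genes were below it. DESeq2 called 1 member, limma-voom with sample quality weights none, and a model of only the 2 groups called 1, which was Gfap in both. Acta2 and Tagln lay above all healthy mice in both day 1 mice, which held for 20% of all genes, and Reln, Pdgfrb and Gfap lay below them, which held for 17.9%. With 2 mice against 4 such separation is common, and the direction of Lrat, Hand2, Cygb and Des at day 1 turned when 1 sample was left out.

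At day 3, 7 of 10 members rose: Lrat, Reln, Cygb, Acta2, Tagln, Pdgfrb and Des. Over all genes 7.19% were called, of which 4.62% as higher. Hand2, Rgs5 and Gfap did not pass the test. All 4 mice lay above all 4 healthy mice for 9 of the 10 members, Gfap being the exception, against 7.53% of all genes (6.84% lay below). The members' median log2 fold change was 2.65 for the quiescence genes and 3.66 for the contractile genes, and 0.18 over all genes. Acta2, Tagln, Pdgfrb and Des were called in each of the 14 fits that left out 1 sample. Without healthy replicate 1 the count fell to 4 members, since Lrat (adjusted p = 0.0509), Reln and Cygb were lost, and without healthy replicate 2 it fell to 5. Without day 7 replicate 1, which enters through the shared estimate of the spread, 9 members were called. Cygb was lost in 9 of the 14 fits, with an adjusted p of up to 0.0957.

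At day 7, 7 of 10 members were higher by the test: Lrat, Reln, Hand2, Cygb, Acta2, Pdgfrb and Des, beside 2.19% of all genes (3.18% in either direction and 0.992% lower). Tagln, Rgs5 and Gfap did not pass. Only 5 members lay above the healthy range in all 4 mice (Lrat, Reln, Cygb, Pdgfrb and Des), against 8.72% of all genes. The median log2 fold change was 3.69 for the quiescence genes and 2.56 for the contractile genes, and 0.02 over all genes. These calls leaned on single mice: 1 member (Reln) was called without healthy replicate 1, 2 (Reln and Pdgfrb) without healthy replicate 2 and also without healthy replicate 3, and 4 without day 7 replicate 2. Without day 7 replicate 1, and likewise without day 3 replicate 4, 9 were called. Reln was called in all 14 of these fits, Pdgfrb in 13, Cygb and Des in 11, Lrat and Hand2 in 10 and Acta2 in 5. The comparisons of days 1, 3 and 7 share the same 4 healthy mice.

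**Figure D2:**
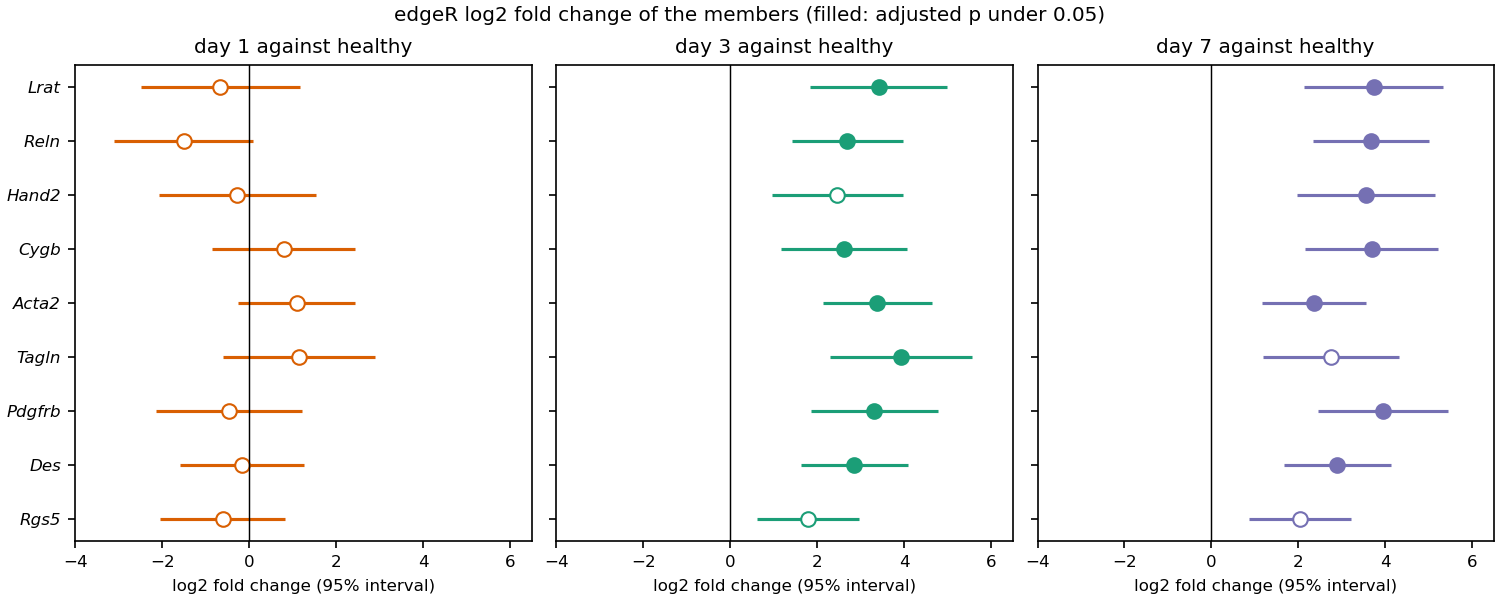
Fitted log2 fold change of 9 members against healthy LSECs at days 1, 3 and 7 with 95% intervals, filled where the adjusted p was under 0.05. Gfap is left out because no read was counted at day 1. Intervals at day 1 span 0 for each gene shown. At day 3 the contractile pair (3.39 and 3.93) was at or above most quiescence genes, and at day 7 the quiescence genes (3.56 to 3.74) stood above the pair (2.35 and 2.76).

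Between the injured groups directly, Reln and Pdgfrb were the members called higher at day 3 than at day 1 by edgeR, with a difference of 4.20 (log2, SE 0.86, adjusted p = 0.0223) and 3.78 (SE 0.93, adjusted p = 0.0490), where 1.57% of all genes were (2.54% in either direction). Reln was lost without either day 1 mouse (adjusted p = 0.214 without replicate 1 and 0.275 without replicate 2), and Pdgfrb was called in only 2 of the 14 fits without 1 sample, those without day 7 replicates 1 and 2. All 4 day 3 mice lay above both day 1 mice for 9 of 10 members, against 11.4% of all genes, and the exception was Gfap. DESeq2 called 9 members in this comparison.

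From day 3 to day 7 no member was called by edgeR's quasi-likelihood test, where 1.77% of all genes were called, mostly as lower (1.36%). An unadjusted p under 0.05 was reached by 5017 of all genes and by none of the members. DESeq2 called none as well, and limma-voom called 2. The contractile genes had negative differences (Acta2 -1.03, 95% interval -2.18 to 0.11, and Tagln -1.17, -2.64 to 0.31). All 4 quiescence genes had positive ones, from 0.32 for Lrat (-1.11 to 1.75) to 1.09 for Hand2 (-0.35 to 2.53). Each of these intervals includes 0, and the groups overlapped for each of the 10 members, while 3.76% of all genes lay above and 4.15% below without overlap.

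The balance of the 2 sides was therefore taken within each mouse, as the log2 ratio of the summed CPM per kb of Acta2 and Tagln to that of Lrat, Reln, Hand2 and Cygb. Since both sums come from the same library, scaling cancels. The ratio was 0.26, 0.97, 0.81 and -0.13 in healthy mice, 1.06 and 1.70 at day 1, 1.29, 1.56, 1.05 and 0.41 at day 3, and -0.35, -0.73, -0.58 and -1.05 at day 7. Contractile genes thus outweighed quiescence genes in 3 of 4 healthy mice and in all mice of days 1 and 3, and quiescence genes outweighed contractile genes in all 4 mice of day 7. The quiescence sum weighs Cygb most at day 7, at a mean of 20.2 of 38.3 CPM per kb. Lrat averaged 10.7, Reln 3.90 and Hand2 3.52 CPM per kb in the same mice. A ratio without Cygb was not taken, so the larger side at day 7 holds only for this sum of genes. Which side was the larger also depended on the division by exon length. Without it the ratio was -1.03, -0.35, -0.41 and -1.52 in healthy mice, 0.46 and 0.90 at day 1, -0.09, 0.09, -0.19 and -0.87 at day 3 and -1.72, -1.92, -2.06 and -2.54 at day 7, so that contractile genes were the larger side in 0 of 4 healthy mice and 1 of 4 at day 3, while day 7 still lay below all healthy mice. Healthy mice averaged 0.48 ± 0.51 (SD, n = 4) and day 1 mice 1.38 ± 0.45 (n = 2). Day 3 mice averaged 1.08 ± 0.49 and day 7 mice -0.68 ± 0.29 (n = 4 each).

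Day 7 lay apart from both healthy LSECs (difference -1.15, pooled SD 0.41) and day 3 (difference -1.75, pooled SD 0.41), and day 1 lay above healthy LSECs (difference 0.90, pooled SD 0.49). Day 3 and healthy LSECs overlapped (difference 0.60, pooled SD 0.50). No p is given because the genes of the 2 sums were named with earlier results of these samples known. Leaving out 1 mouse moved the difference of day 7 to healthy LSECs between -1.36 and -0.99 and that of day 7 to day 3 between -1.98 and -1.59. At the nearest, day 7 and healthy mice stood at -0.35 and -0.13, and day 1 and healthy mice at 1.06 and 0.97.

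Single pairs of genes gave the same order of day 3 and day 7. The log2 ratio of Acta2 to Lrat per kb was 1.98 ± 0.15 (SD, n = 4) at day 3 and 0.68 ± 0.46 at day 7, and that of Acta2 to Reln was 4.09 ± 0.47 and 2.07 ± 0.69, without overlap in either. In healthy LSECs the 2 ratios were 2.25 ± 1.25 and 3.35 ± 0.46, and both overlapped those of day 3, whose mean was the lower for Acta2 to Lrat and the higher for Acta2 to Reln. Day 7 overlapped healthy LSECs for both pairs as well (0.05 to 1.14 against 0.65 to 3.41, and 1.32 to 2.81 against 2.77 to 3.81), unlike the ratio of the sums. Tagln to Acta2, the ratio within the contractile side, was -1.73 ± 0.32, -1.65 ± 0.43 (n = 2), -1.38 ± 0.54 and -1.60 ± 0.90 in healthy, day 1, day 3 and day 7 LSECs, with ranges that overlapped throughout.

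**Figure D3:**
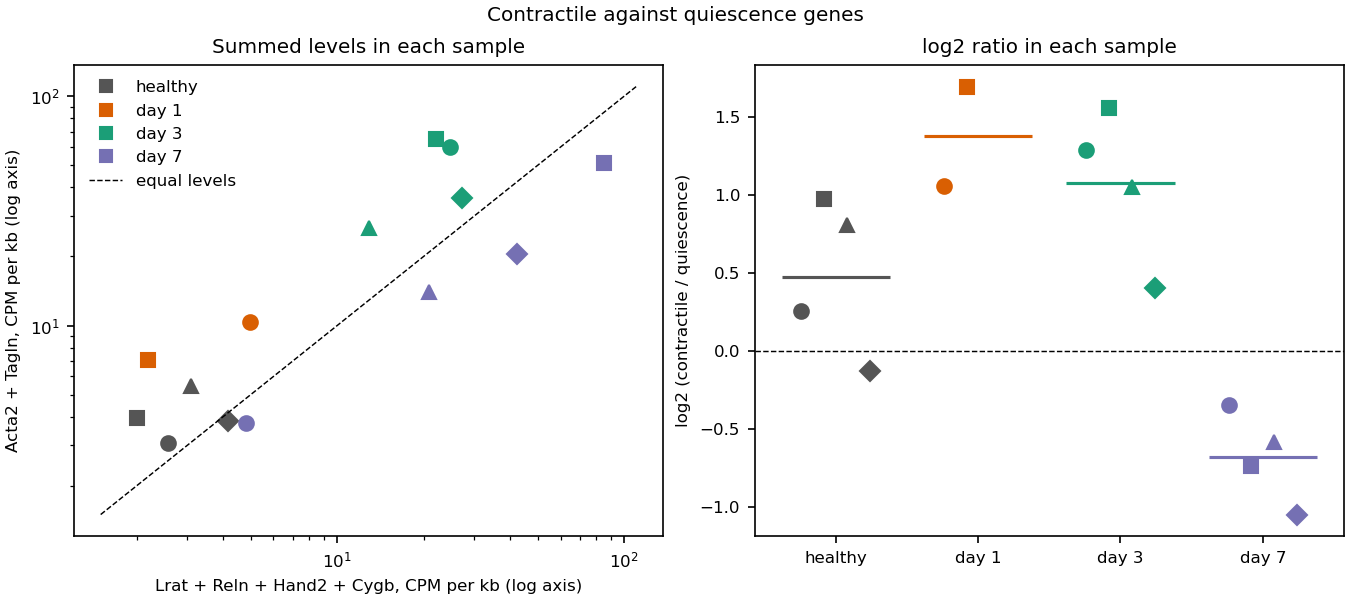
Left, summed CPM per kb of Acta2 and Tagln against that of Lrat, Reln, Hand2 and Cygb in each mouse (both axes log), with a dashed line where they are equal. Right, the log2 ratio of the 2 sums in each mouse, with group means as lines and the symbol giving the replicate. All 4 day 7 mice lie below the line of equal levels although their contractile sums run from 3.78 to 51.1 CPM per kb.

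Spread between the mice was widest at day 7. The SD of log2 CPM between the 4 mice ran from 1.27 (Rgs5) to 2.12 (Tagln), with a median of 1.72 over the 10 members against 0.433 over all tested genes, and each of the 10 members lay above that all-gene median. The same median was 0.385 in healthy LSECs against 0.417 over all genes and 0.616 at day 3 against 0.792 over all genes, and in both groups 3 of 10 members lay above the all-gene value. Genes detected ran from 22986 to 34768 per library at day 3, against 28534 to 30735 in healthy LSECs and 27283 to 28476 at day 7. The part of this in the all-gene value of day 3 was not tested. Lrat had the widest spread in healthy LSECs (1.07), with replicate 4 highest at 9.28 CPM and replicate 2 lowest at 1.53 CPM. At day 1 the median was 0.217 against 0.246 with 2 mice.

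Single mice carried the spread at day 7 in an orderly way. Replicate 1 was lowest in all 10 members and replicate 2 highest in 9, with replicate 4 highest for Gfap. Between these 2 mice the members differed from 6.69-fold (Rgs5) to 30.1-fold (Tagln), by 12.4-fold for Lrat, 14.2-fold for Reln and 11.3-fold for Acta2. Replicate 1 lay within the healthy range for Hand2, Acta2 and Rgs5, below it for Tagln and Gfap, and above it for the other 5. Its contractile to quiescence ratio, -0.35, was nevertheless below all healthy mice, as in the other mice of day 7.

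At day 3, replicate 3 was lowest in 9 of 10 members, and the highest value was split between replicate 4 (Reln, Hand2, Cygb, Pdgfrb and Des), replicate 2 (Lrat, Acta2, Tagln and Gfap) and replicate 1 (Rgs5). Replicates 1 and 2 had Tagln at 42.0 and 44.3 CPM and Rgs5 at 49.7 and 32.7, and replicates 3 and 4 had 11.7 and 15.4 CPM of Tagln and 11.01 and 13.99 CPM of Rgs5. Replicate 4, the highest of the 4 mice for Pdgfrb and Cygb, was thus below replicates 1 and 2 for Tagln. Genes detected split in the same way, at 34678 and 34768 in replicates 1 and 2 and 28203 and 22986 in replicates 3 and 4. Leukocyte markers summed to 12688 and 7828 CPM against 1565 and 1410 CPM. The part of either in these differences was not tested.

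**Figure D4:**
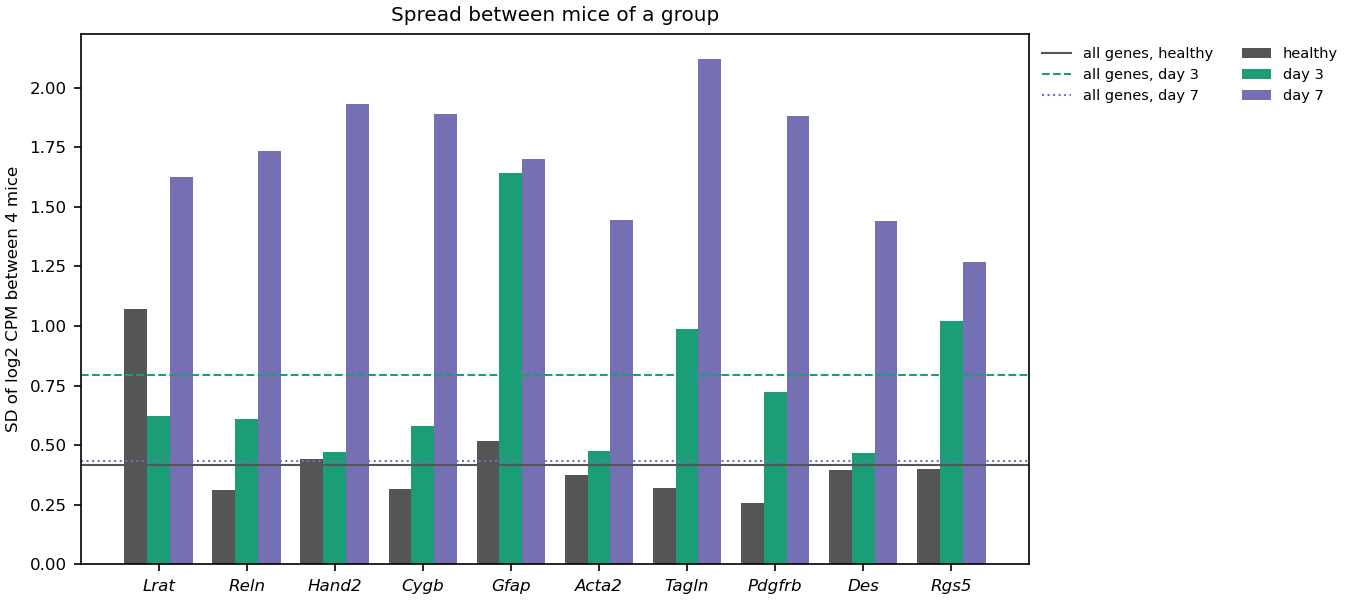
SD of log2 CPM between the 4 mice of a group for each member (bars) and its median over all 26626 tested genes (lines) in healthy, day 3 and day 7 LSECs; day 1 is left out with 2 mice. At day 7 each member stands above the all-gene median of 0.433, from 1.27 to 2.12. The day 3 bar of Gfap rests on 0 to 17 counts.

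Gene lists were placed by the same mice at day 7. Replicate 1 was lowest for 17 of 20 further stellate cell markers, 15 of 17 contractile apparatus genes, 14 of 18 fibrillar matrix genes and 11 of 13 portal fibroblast and mesothelial genes, and for 8 of 10 Kupffer cell markers, but for 3 of 12 LSEC markers, 0 of 12 hepatocyte markers and 1 of 10 leukocyte markers. By its sum the fibrillar matrix list was not lowest in replicate 1, at 3384 CPM against 13082, 3284 and 2984 CPM in replicates 2, 3 and 4, while Kupffer cell markers were, at 887 CPM against 1418 to 1903 CPM. The matrix sum includes Spp1, which averaged 2499 ± 1999 CPM at day 7 and is also on the cholangiocyte list. That list summed to 2567, 5261, 1647 and 603 CPM in replicates 1 to 4. The order of the matrix sum need therefore not be that of its other genes. Hepatocyte markers were highest in replicate 2 (12 of 12, 10529 CPM in sum) and lowest in replicate 3 (12 of 12, 1360 CPM), with replicate 1 second at 5638 CPM. LSEC markers summed to 14750 CPM in replicate 1 and 10431 CPM in replicate 2, the highest and the lowest of day 7. No share over all tested genes stands beside these counts or beside that of the 10 members, so they only describe the genes listed. The part of these cell types in the spread of the members was not tested.

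Further stellate cell markers, 20 genes known from resting or activated stellate cells, did not move as one. At day 1, 3 fell and 2 rose, at day 3, 9 rose and 1 fell, and at day 7, 9 rose. Over all genes, 2.42%, 4.62% and 2.19% were called higher at days 1, 3 and 7, and 1.64%, 2.58% and 0.992% lower. The median log2 fold change of the list was -1.35, 1.70 and 1.95 at days 1, 3 and 7. Itga8, an integrin subunit, and Prelp, a matrix proteoglycan, were at 116 ± 35.02 and 136 ± 19.2 CPM (SD, n = 4) in healthy LSECs and at 8.58 ± 0.501 and 11.9 ± 1.53 at day 1 (n = 2, log2 fold change -3.76 and -3.51, adjusted p = 0.000629 and 0.000841). Hgf, the hepatocyte growth factor, rose from 28.4 ± 3.73 to 199 ± 78.1 CPM at day 1 (2.80, adjusted p = 0.000931) and was at 113 ± 32.9 at day 3. At day 7 none of the 20 was called without healthy replicate 1 and 12 were without day 7 replicate 1. At day 3, 3 were called higher without healthy replicate 1 or without healthy replicate 2, and 0 lower in 9 of 14 fits. At day 1, 7 fell without day 7 replicate 1, 2 fell without healthy replicates 1, 2 or 3 or either day 1 mouse, and 1 rose without day 1 replicate 1.

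Of 17 contractile apparatus genes, which encode smooth muscle myosin, calponins, tropomyosins and proteins that bind actin, 2 rose at day 1, 5 at day 3 and 3 at day 7, and none fell. Over all genes, 2.42%, 4.62% and 2.19% were called higher at these days and 1.64%, 2.58% and 0.992% lower. The median log2 fold change was 0.10, 0.98 and 0.85. Actn1 (an actinin) and Flna (filamin A) were the genes that rose at day 1, to 87.0 ± 28.8 and 190.1 ± 10.6 CPM from 13.5 ± 3.21 and 58.2 ± 15.6 (adjusted p = 0.000865 and 0.0114). Tpm2, a tropomyosin of muscle, was unlike them at 2.80 ± 0.462 CPM in healthy LSECs and 2.68 ± 0.620 at day 1. It rose to 22.8 ± 10.6 at day 3 (log2 fold change 3.03, adjusted p = 0.00677). Without healthy replicates 1, 2 or 3, none of this list was called at day 7, and without day 7 replicate 1, 7 were. In 8 of the 14 fits without 1 sample, 3 were called at day 3.

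Pericyte and vascular smooth muscle genes numbered 10, of which 3 rose at day 1, 4 at day 3 and 3 at day 7. The shares called higher over all genes were 2.42%, 4.62% and 2.19%. Kcnj8 and Abcc9, which encode the pore and the regulatory subunit of a potassium channel gated by ATP, went from 16.5 ± 3.40 and 19.9 ± 4.91 CPM to 135 ± 19.7 and 86.8 ± 1.19 at day 1 (adjusted p = 0.000463 and 0.00150). Rgs5 itself had a day 1 log2 fold change of -0.61 (adjusted p = 0.724). Gucy1a1, a subunit of the nitric oxide receptor, was not called at day 1 (1.06 ± 0.248 CPM) and rose from 2.95 ± 0.825 to 31.6 ± 10.4 CPM at day 3 (3.42, adjusted p = 0.00491). Without day 7 replicate 1, 6 of the list were called at day 7, and without healthy replicate 1, 2 were.

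In the PDGF family, 5 genes beside Pdgfrb, 2 rose and 1 fell at day 1, 3 rose and 1 fell at day 3, and 1 rose at day 7. Of all genes, 2.42%, 4.62% and 2.19% were called higher and 1.64%, 2.58% and 0.992% lower at days 1, 3 and 7. Ligands moved in both directions: Pdgfa rose from 5.25 ± 0.682 to 15.6 ± 2.33 CPM at day 1 (1.57, adjusted p = 0.0261) and Pdgfd fell from 23.1 ± 1.96 to 6.02 ± 2.77 (-1.94, adjusted p = 0.00929). The second receptor, Pdgfra, followed the course of Pdgfrb, at 1.76 ± 0.575 CPM in healthy LSECs, 2.28 ± 1.07 at day 1, 10.8 ± 3.25 at day 3 (2.61, adjusted p = 0.0232) and 18.4 ± 17.1 at day 7 (3.38, adjusted p = 0.0149). Without healthy replicates 1 or 2 no gene of this list was called higher at days 1 and 3, without either day 1 mouse none at day 1, and without healthy replicates 1, 2 or 3 none at day 7.

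Retinoid storage and signalling, the pathway in which Lrat acts, held 16 genes, of which 14 were tested and 0, 2 and 0 rose at days 1, 3 and 7, with no falls. One of them was Crabp2, which carries retinoic acid and went from 0.0128 ± 0.0155 CPM in healthy mice to 0.258 ± 0.045 at day 3 (adjusted p = 0.0480 by edgeR), a level too low in healthy mice for a fold. In 10 of the 14 fits without 1 sample 1 gene was called higher at day 3, and without healthy replicate 4, 4 were at day 3 and 3 at day 7. Of the 6 genes of the reelin pathway, which covers receptors and relays of reelin, the kinase gene Fyn fell at day 3 (545 ± 48.8 to 296 ± 112 CPM, -0.88, adjusted p = 0.0465) and no other was called at any day. Without 1 sample, 0 genes of this list fell at day 3 in 10 of 14 fits and 2 without day 3 replicate 4, and 1 fell at day 1 without day 3 replicates 2 or 4. Intermediate filament genes beside Des and Gfap numbered 7, and 0, 1 and 2 rose, with 1 at day 7 in 10 of the 14 fits without 1 sample and 2 at day 3 without day 3 replicates 1 or 4. Vim (vimentin) went from 184 ± 41.9 to 507 ± 95.7 CPM at day 3 (1.46, adjusted p = 0.00582) and 504 ± 174 at day 7, and Synm, whose protein joins desmin filaments, rose at day 7 (1.86, adjusted p = 0.0464). Beside the counts for the retinoid, reelin and filament lists, 2.42%, 4.62% and 2.19% of all genes were called higher at days 1, 3 and 7. The shares called lower were 1.64%, 2.58% and 0.992%.

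Fibrillar matrix and activation genes are the collagens and their partners that myofibroblasts deposit. None of the 18 fell, and 2 rose at day 1, 16 at day 3 and 15 at day 7, against 2.42%, 4.62% and 2.19% of all genes. Ccn2, a matricellular protein, and Timp1, an inhibitor of matrix proteases, were those of day 1, from 54.2 ± 23.1 to 1768 ± 719 CPM (5.03, adjusted p = 6.21e-05) and from 2.00 ± 0.716 to 64.4 ± 15.4 (5.01, adjusted p = 0.00128). Timp1 and Timp2 are, like Reln, also on the study's own list of genes enriched in LSECs of healthy human liver. Lox, which cross-links collagen, had 0.283 ± 0.128 CPM in healthy mice, 0.561 ± 0.357 at day 1, 9.53 ± 5.34 at day 3 (5.07, adjusted p = 0.00317) and 11.1 ± 11.8 at day 7 (5.28, adjusted p = 0.00600). Of 13 portal fibroblast and mesothelial genes, taken as marks of other sources of myofibroblasts, 0, 3 and 1 rose. Among them Wt1, a mesothelial transcription factor that stellate cells can also express, went from 0.223 ± 0.0795 to 1.16 ± 0.422 CPM at day 3 and 4.88 ± 4.52 at day 7. Cd34, also called higher at day 3, is in the study's own gene set for damaged LSECs and endothelial cells of cirrhotic human liver. These 13 genes are therefore not confined to other cells. Without healthy replicates 1 or 2, none of the 13 was called higher at day 3, and without day 3 replicate 4 or day 7 replicate 1, 4 were at day 7.

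Markers of other liver cells gave the following counts, beside 2.42%, 4.62% and 2.19% of all genes called higher at days 1, 3 and 7. The shares of all genes called lower were 1.64%, 2.58% and 0.992%. Of 12 LSEC markers, 2 rose and 1 fell at day 1, 1 rose and 2 fell at day 3, and 1 fell at day 7. Leaving out 1 sample gave 0 (either day 1 mouse) to 2 (day 3 replicate 4) that fell at day 1, with 1 that rose without either day 1 mouse. It gave 1 (healthy replicates 1, 2 or 3 or day 3 replicate 2) to 5 (day 3 replicate 4) that fell at day 3, and 0 (in 10 of 14 fits) to 3 (day 7 replicate 1) at day 7. Lyve1 rose at days 1 and 3, Kdr fell at day 1, and Tek fell at days 3 and 7. None of 12 hepatocyte markers was called at any day, but 4 were at day 3 and 10 at day 7 without healthy replicate 4. Their levels were not steady. At day 1 the median log2 fold change was -4.64, and 8 of 12 lay below all healthy mice, against 17.9% of all genes. The sum was 459 to 482 CPM at day 1 and 413 to 14082 CPM in healthy mice. For day 3 against day 1, 11 of 12 lay above without overlap, against 11.4% of all genes. Kupffer cell markers had 1 of 10 higher at days 3 and 7 (Cd68), and 0 at day 7 in 8 of the 14 fits without 1 sample. Leukocyte markers had 2, 3 and 1 of 10 higher at days 1, 3 and 7, but leaving out 1 sample gave 0 (6 fits) to 3 at day 1, 0 (5 fits) to 5 (day 3 replicate 4) at day 3 and 0 (healthy replicate 1) to 2 at day 7, with Lyz2 at 760.2 ± 371 CPM in healthy mice, 4119 ± 3455 at day 3 and 7279 ± 2500 at day 7. Cholangiocyte markers had 1 of 7 higher (Spp1, also on the matrix list) at days 3 and 7, and 0 at day 3 in 8 of 14 fits. All of these lists had every gene detected in at least 1 sample, and their part in the members' differences was not tested.

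By the root mean square difference of centred log2 CPM over the 14 samples, the genes nearest to Lrat were Lum (0.485), a collagen-binding proteoglycan, Pde3a (0.502), Srpx2 (0.508), Neto1 (0.520) and Ccdc68 (0.531). Nearest to Acta2 were Myl9 (0.490), a myosin light chain, Tpm2 (0.508), Gm6556 (0.512), Tagln (0.532) and Cdk14 (0.575). Tagln was thus the fourth of 26625 genes from Acta2, whereas Reln, Hand2 and Cygb were at ranks 35, 56 and 117 from Lrat, behind Pdgfrb at 25 and Des at 33. Acta2 was at rank 228 from Lrat. Within the members the closest pairs were Hand2 with Cygb (0.459), Reln with Pdgfrb (0.502) and Acta2 with Tagln (0.532), and for all of these the 14 points share libraries and groups.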

How the data were processed

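RNA from LSECs of 14 mice (healthy, n = 4; day 1, n = 2; day 3, n = 4; day 7, n = 4) was reverse transcribed with a SMARTseq v4 kit, which does not mark strand, and sequenced. The authors deposited 1 table of raw counts per Ensembl gene. Their processing notes name STAR, StringTie and GRCm38, while versions, annotation release, strand setting and the step to counts are not given in the sources used here. Genes were named with GENCODE vM21. Totals ran from 85458439 to 103912264 in healthy LSECs. Libraries of days 1, 3 and 7 held 88665669 to 94626259, 62635645 to 93345913 and 46401496 to 86318681 counts.

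In R 4.3.3, genes were kept by filterByExpr (minimum count 10, minimum total 15), scaled by TMM and tested with the quasi-likelihood test of edgeR 4.0.16 in 1 model of the 4 groups with no covariate, adjusted by Benjamini-Hochberg over all 26626 genes at 0.05. The standard error is the absolute log2 fold change over the square root of F, and 95% intervals use the t quantile of its total degrees of freedom. CPM per kb divides by exon length, and log2 CPM for spread used a prior count of 2. Bounds at 0 use 3 counts per library and cover counting error only. The edgeR step was also run on simulated data. Replicate numbers were taken from the labels. The mice of a group are separate animals. Alternatives were RLE size factors, library size alone, no filter, voom with quality weights per sample in limma 3.58.1, DESeq2 1.42.0, a replicate block, only the 2 groups compared, and each sample left out in turn.

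Apart from the members, the genes named in each list are the 3 with the smallest adjusted p among those called at any day, and the nearest genes are the 5 with the smallest root mean square difference from Lrat or Acta2. The members and lists were chosen with earlier results of these data known. The promoter search with 1 substitution was added after the sequences had been seen. The values of 1 gene that this rule names are not reported here.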

Additional observations from a re-analysis of the deposited data

Results flagged for a closer look

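Reln and Pdgfrb stood out because a test of the difference itself separated 2 injured groups that are each compared with the same healthy mice. Against day 1, the log2 fold change at day 3 was 4.20 for Reln (adjusted p = 0.0223 in edgeR's quasi-likelihood test) and 3.78 for Pdgfrb (adjusted p = 0.0490). In the same test Lrat (4.08, adjusted p = 0.0531) and Des (3.01, adjusted p = 0.0576) fell just short of the threshold, so the rise was not particular to the 2 genes called. Reln was at 3.37 and 1.70 CPM in the day 1 mice and at 24.0 to 63.9 CPM in the 4 day 3 mice, and Pdgfrb at 1.41 and 1.45 against 10.2 to 34.6 CPM. Both rest on 2 day 1 mice, and neither gene was called without either of them. Pdgfrb was called in 2 of the 14 fits without 1 sample and Reln in 12. Among 33 groups of 4 samples tested for a sample far from the rest, 0 had one, where chance alone gives about 1 in 20. The groups share the same mice, so they are not independent tests. With only 4 values in each, they cannot show that no mouse stood apart. Day 7 replicate 1 was the lowest of its group in all 10 members and was not flagged.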

How the results depend on the processing

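Of 1050 values of members under alternatives, 923 kept direction and side of the threshold, 56 lost the call, 48 gained one and 23 changed direction. With 2 mice at day 1 and wide spread at day 7, calls near the threshold depended on the method and on single mice.

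All genes called numbered 1080 at day 1 (DESeq2 2836, limma 4308, 2 groups only 2327, 164 to 1845 without 1 sample), 1915 at day 3 (3790, 7265, 1108, 946 to 3314), 846 at day 7 (2713, 7047, 3156, 193 to 2166), 676 for day 3 against day 1 (2407, 3344, 189, 49 to 932) and 472 for day 7 against day 3 (1783, 6002, 1, 26 to 1652, with 287 by library size alone and 157 with no filter).

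Members called at day 1 were 1 by DESeq2 and 1 with the 2 groups only. Leaving out 1 sample gave 4 to 9 members for day 3, 1 to 9 for day 7 and 0 to 6 for day 3 against day 1, where DESeq2 gave 9, limma 7 and the 2 groups only 4. For day 7 against day 3 limma gave 2.

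With the replicate number as a block, 594, 435, 311 and 244 genes were called at day 1, at day 7, for day 3 against day 1 and for day 7 against day 3, and 4 members at day 7 and 0 for day 3 against day 1, with Des at -0.21 for day 7 against day 3. Of 18 pairs with the same number 0 had a correlation of deviations above 0.1, and 0 of 14 samples correlated best with their own number. The labels do not say what the number stands for, and these correlations cannot show whether it marks a shared day or preparation.

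Directions turned for Lrat at day 1 (limma 0.044), Gfap at day 3 (no filter -0.056) and, for day 7 against day 3, Lrat (limma -0.19), Des (limma -0.040) and Rgs5 (limma -0.011). Without 1 sample they ranged at day 1 from -0.085 to 1.30 for Cygb, -0.47 to 0.034 for Des, -1.44 to 0.32 for Hand2 and -0.94 to 0.032 for Lrat, at day 3 from -0.42 to 0.43 for Gfap, and for day 7 against day 3 from -0.81 to 0.52 for Des, -0.41 to 0.83 for Lrat and -0.13 to 1.16 for Pdgfrb.

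The contractile to quiescence difference to healthy LSECs at day 1 was 1.51 without division by length, 1.43 for Acta2 to Lrat and 1.52 for Tagln to Lrat. At day 3 it was -0.27 for Acta2 to Lrat and 0.083 for Tagln to Lrat, at day 7 -1.57 for Acta2 to Lrat, and day 7 against day 3 -1.31. Leaving out 1 mouse gave 0.58 to 1.22 (day 1), 0.40 to 0.82 (day 3), -1.36 to -0.99 (day 7) and -1.98 to -1.59 (day 7 against day 3). The cause of these changes was not tested.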
